A study of Mus musculus with 6 samples.

Results

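The genes of the cyclic AMP (cAMP) signalling machinery described here are the adenylyl cyclases, the subunits of cAMP-dependent protein kinase (PKA), the cyclic nucleotide phosphodiesterases and the A-kinase anchoring proteins (AKAPs). They were chosen by symbol alone, as the genes named Adcy, Pde, Prkac, Prkar or Akap followed by their family number or letter, and 1 further matching gene was left out by the rule. This gave 56 of the 31838 genes in the deposited table, of which 52 passed the filter on low counts, beside 20428 of all genes. The members comprised 9 transmembrane cyclases, 1 soluble cyclase, 2 catalytic and 4 regulatory PKA subunits, 25 genes with a phosphodiesterase name, 14 AKAPs and 1 processed pseudogene of a catalytic subunit.

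The study sequenced polyadenylated hippocampal RNA of wild-type C57BL/6 mice aged 4 months. The BBP group had received butyl benzyl phthalate, a plasticiser, at 50 mg/kg/day, and the corn oil group had received corn oil, which is used to carry such compounds. Each group had 3 libraries, named here BBP 1 to 3 and corn oil 1 to 3, and both groups shared strain, genotype and age. The labels do not say whether the libraries of a group came from separate animals or pools, so each p-value reflects only how far these libraries spread, and they do not give the sex of the mice or the length of the treatment.

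Adenylyl cyclases make cAMP from ATP when G-protein-coupled receptors or calcium activate them, and cAMP releases the catalytic subunits of PKA from the regulatory subunits that hold them inactive. Phosphodiesterases break cAMP and its relative cGMP down again, and AKAPs tether PKA, often together with a phosphodiesterase, to particular places in the cell. In hippocampal neurons this pathway phosphorylates channels, receptors and the transcription factor CREB, and it is known for its part in long-lasting synaptic plasticity and memory.

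The deposited estimated counts summed to 62477604 to 67270275 per BBP library and 62747522 to 68422361 per corn oil library, and 25304 to 25931 genes were above 0 in each. BBP 1 stood apart in region markers, and corn oil 3 in those of choroid plexus, the tissue that makes cerebrospinal fluid. The 15 listed markers of striatum, all of them tested and none at 0 in any library, summed to 265 FPKM in BBP 1, 112 in BBP 2 and 105 in BBP 3, against 102 to 146 FPKM in the corn oil libraries, and 14 of the 15 were highest in BBP 1. The 12 markers of isocortex summed to 139 FPKM in BBP 1 and to 68.04 to 72.3 in the other BBP libraries, against 66.0 to 85.1 in corn oil. Of these 12, 7 were highest in BBP 1. The 9 dentate granule neuron markers summed to 60.6 FPKM in BBP 1, 97.1 in BBP 2 and 94.9 in BBP 3, against 74.2 to 94.5 FPKM in corn oil libraries. The 10 choroid plexus markers summed to 85.0, 73.2 and 81.4 FPKM in BBP libraries, against 103, 143 and 401 FPKM in corn oil 1, 2 and 3, with none at 0, and their part in the members' values was not tested. The 8 markers of CA1 pyramidal neurons summed to 114 to 159.6 FPKM in BBP and 138 to 155 FPKM in corn oil libraries. The 8 markers of CA2 and CA3 neurons summed to 59.0, 79.4 and 90.6 FPKM in BBP 1, 2 and 3. In corn oil 1, 2 and 3 they summed to 99.8, 98.7 and 81.4 FPKM, and 2 of the 8 had a positive log2 fold change. Both lists, which hippocampus expresses, were above 0 in every library, and their part in the members' values was not tested. In bulk tissue, fewer cells of a type and less RNA per cell cannot be told apart.

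Promoters of the members were read from RefSeq (GRCm38.p6), as 250 bases before to 50 after each annotated start. A promoter was found for 45 of the 56 members, 86 promoters in all. The cAMP response element (CRE), the DNA motif bound by CREB, was searched on both strands as TGACGTCA and as its shorter form TGACG, which the full motif contains once on each strand. The full CRE was present in 2 of the 86 member promoters (2.33%), both of them overlapping promoters of Prkar1a, against 588 of all 32851 promoters (1.79%). The short form was in 18 (20.9%), against 20.8% of all promoters, so the share among the members was close to that of the genome. The box CCAAT was likewise at 37.2% against 37.4%. The letters TATAAA were in 4 member promoters, of 3 genes (4.65%), against 13.6% of all promoters. GGGCGG, the GC box, was in 45.3%, against 35.7%. The median promoter was 58.83% G and C for the members, against 52.75% over all genes. The part of this base content in either share was not tested. A match describes these letters only and is neither a bound site nor a cause.

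Sequences are shown for 4 members to which the expression values return, Prkar1a for its full CRE, Pde8a for the smallest p-value, and Adcy5 and Pde7b for their high level in BBP 1. Capitals mark the CRE letters, and each sequence reads 5' to 3' on the strand of the gene. The Prkar1a promoter is chr11:109650699-109650998 (plus strand), and its full CRE begins at position -49 relative to the start site with a further short form at -187. The Pde8a promoter is chr7:81213015-81213314 (plus strand) and holds 1 short form, at -84. The Adcy5 promoter is chr16:35154614-35154913 (plus strand) and the Pde7b promoter is chr10:20548279-20548578 (minus strand). Neither holds a CRE in these windows.
Prkar1a: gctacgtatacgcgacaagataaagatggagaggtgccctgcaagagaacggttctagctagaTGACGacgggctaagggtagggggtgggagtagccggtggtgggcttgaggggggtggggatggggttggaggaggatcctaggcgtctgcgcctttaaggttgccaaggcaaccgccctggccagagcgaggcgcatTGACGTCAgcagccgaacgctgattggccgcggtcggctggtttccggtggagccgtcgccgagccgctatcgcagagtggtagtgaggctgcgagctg
Pde8a: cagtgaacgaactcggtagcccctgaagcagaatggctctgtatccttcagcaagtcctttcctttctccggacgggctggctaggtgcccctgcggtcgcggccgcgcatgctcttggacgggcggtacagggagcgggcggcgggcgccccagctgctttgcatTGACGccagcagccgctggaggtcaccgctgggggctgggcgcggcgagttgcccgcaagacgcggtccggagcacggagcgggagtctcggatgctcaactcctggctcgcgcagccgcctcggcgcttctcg
Adcy5: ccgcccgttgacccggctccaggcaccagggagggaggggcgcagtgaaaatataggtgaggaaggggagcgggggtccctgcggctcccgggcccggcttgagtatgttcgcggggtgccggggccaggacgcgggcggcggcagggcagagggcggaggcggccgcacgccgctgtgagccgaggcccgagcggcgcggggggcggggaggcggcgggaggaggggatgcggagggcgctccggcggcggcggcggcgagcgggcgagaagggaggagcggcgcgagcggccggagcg
Pde7b: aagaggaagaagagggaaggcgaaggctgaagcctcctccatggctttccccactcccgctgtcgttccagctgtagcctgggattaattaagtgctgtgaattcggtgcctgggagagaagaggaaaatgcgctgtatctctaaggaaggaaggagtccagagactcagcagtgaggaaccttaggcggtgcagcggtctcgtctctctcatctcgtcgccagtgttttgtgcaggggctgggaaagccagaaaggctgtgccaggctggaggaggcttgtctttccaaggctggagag

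Levels are given in FPKM, fragments per kilobase of transcript scaled to the library's mapped fragments, as the authors deposited them, and can therefore be set side by side between genes. The order of levels was led by the regulatory subunits Prkar1a and Prkar1b, with means of 147.6 and 139.2 FPKM over the 6 libraries. Pde2a and Prkaca followed at 64.9 FPKM each, then Adcy1 at 44.2, Prkacb at 32.9 and Akap8l at 32.7 FPKM. Of these neighbours, Prkar1a and Prkar1b overlapped across libraries, as did Pde2a and Prkaca, Adcy1 and Prkacb, and Prkacb and Akap8l. In all, 16 members averaged at least 10 FPKM, 23 lay between 1 and 10, 11 between 0.1 and 1 and 6 below 0.1. The tested members had a median level of 5.57 FPKM, against 2.51 FPKM over all tested genes. They were also long genes, with a median span of 89.2 kb against 16.9 kb, and Pde4d was the longest at 1504 kb.

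**Figure D1:**
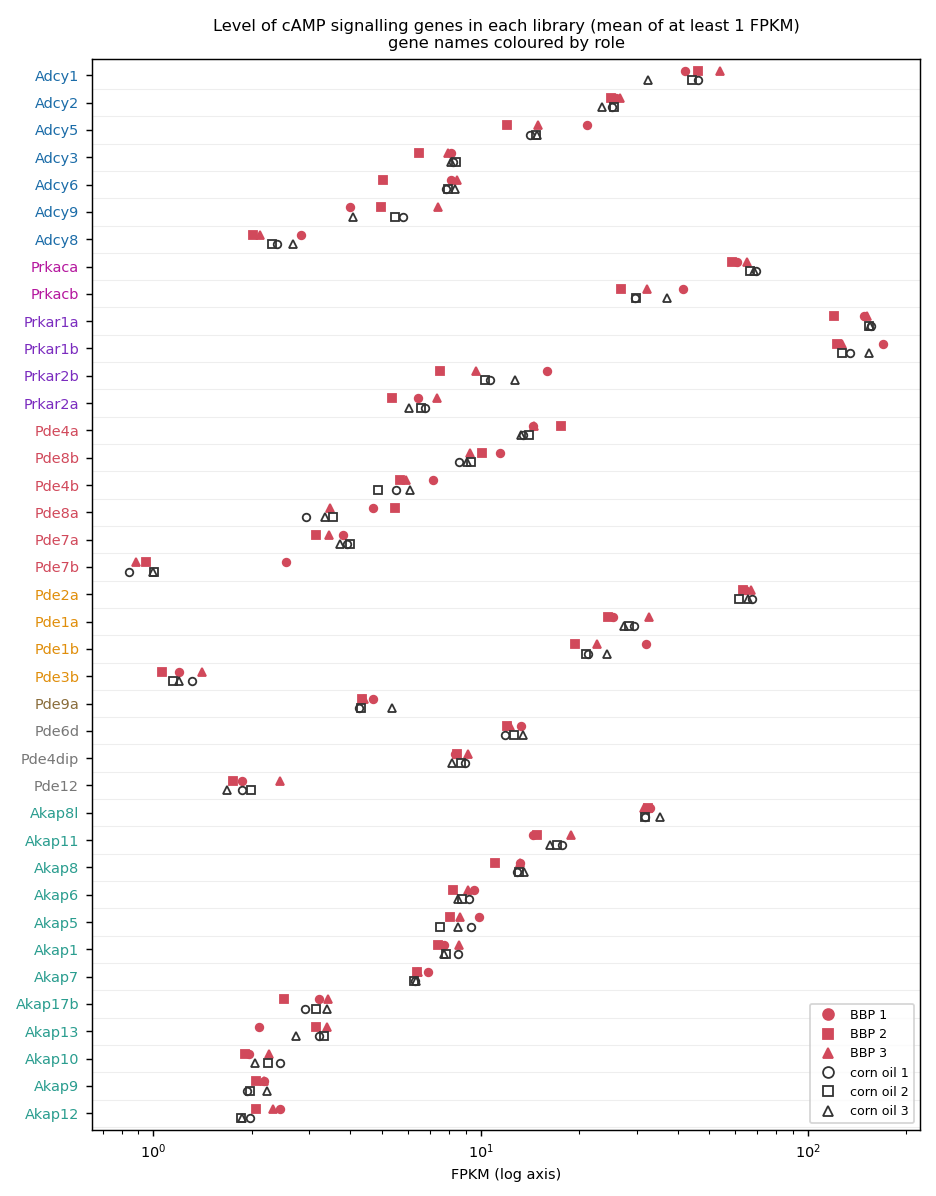
FPKM of the 39 members with a mean of at least 1 FPKM, on a log axis, with gene names coloured by role, filled red symbols for BBP 1 to 3 and open symbols for corn oil 1 to 3. Prkar1a and Prkar1b lie above 100 FPKM in all libraries, the filled and open symbols overlap for most genes, and BBP 1 stands alone for Pde7b at 2.55 FPKM.

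Among the transmembrane cyclases, 3 genes carried most of the RNA. Adcy1, the calcium-stimulated cyclase of hippocampal neurons (chr11:7063489-7178506, mm10), stood at 42.0, 46.2 and 53.8 FPKM in BBP 1, 2 and 3, against 46.2, 44.4 and 32.6 FPKM in corn oil 1, 2 and 3. The highest value was in BBP 3 and the lowest in corn oil 3, while the other 4 libraries lay together. Its log2 fold change of BBP over corn oil was 0.23 (SE 0.15, 95% interval -0.12 to 0.57), with an adjusted p of 0.953 by edgeR's quasi-likelihood test with Benjamini-Hochberg adjustment, the test used throughout. Without corn oil 3, in which dentate granule neuron markers were lowest and choroid plexus markers highest among corn oil libraries, it was 0.09.

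Adcy2, a cyclase that G-protein beta-gamma subunits stimulate (chr13:68620043-68999541), stood at 26.0, 25.0 and 26.6 FPKM in BBP libraries and 25.2, 25.5 and 23.5 FPKM in corn oil libraries. On the normalised log2 CPM scale, which uses trimmed-mean library scaling, every BBP library lay above every corn oil library, whereas in FPKM the groups overlapped. The difference was small, with a log2 fold change of 0.09 (SE 0.08, interval -0.09 to 0.26).

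Adcy5, the principal cyclase of striatal medium spiny neurons (chr16:35154877-35305738), stood at 21.2, 12.1 and 15.0 FPKM in BBP 1, 2 and 3, against 14.2, 14.8 and 14.9 FPKM in corn oil. BBP 1 was the highest of the 6 libraries and BBP 2 the lowest. BBP over corn oil gave a log2 fold change of 0.15 (SE 0.17, interval -0.23 to 0.54), and without BBP 1 it was -0.08. Adcy5 made up 18.6% of the summed cyclase FPKM in BBP 1 and 11.7% and 12.2% in BBP 2 and 3, against 12.7% to 15.6% in corn oil.

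Adcy6, a cyclase that calcium inhibits (chr15:98589973-98610076), stood at 8.13, 5.02 and 8.46 FPKM in BBP libraries, against 7.86, 7.94 and 8.34 FPKM in corn oil libraries. Its low value was that of BBP 2 alone, and the log2 fold change of -0.15 (SE 0.16) became 0.03 without that library. Adcy3, known from olfactory cilia and neuronal primary cilia, averaged 7.53 FPKM in BBP and 8.25 FPKM in corn oil libraries. Adcy3 shares 17522 bp with Cenpo on the opposite strand, a gene at 0.65 FPKM. Adcy9 ranged from 3.99 to 7.41 FPKM in BBP and from 4.07 to 5.80 FPKM in corn oil libraries, Adcy8 from 2.01 to 2.83 FPKM over all libraries, and Adcy4 and Adcy7 from 0.588 to 1.05 FPKM. Adcy10, the bicarbonate-sensitive soluble cyclase, had 8, 6 and 5 counts in BBP libraries and 17, 7 and 20 counts in corn oil libraries, too few to be tested. The 9 transmembrane cyclases together summed to 113 ± 9.82 FPKM in BBP and 106 ± 8.87 FPKM in corn oil libraries (SD, n = 3 each).

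The catalytic PKA subunits differed in how they varied. Prkaca, which encodes the widely expressed C-alpha subunit (chr8:83972993-83996443), stood at 60.9, 58.5 and 65.4 FPKM in BBP libraries, against 69.4, 66.8 and 68.4 FPKM in corn oil libraries. All BBP values lay below all corn oil values. The log2 fold change was -0.12 (SE 0.07, interval -0.30 to 0.05), with an unadjusted p of 0.129 and an adjusted p of 0.953 by edgeR's quasi-likelihood test, so the shift did not pass the test. Prkacb, which encodes the C-beta subunit (chr3:146729574-146812990), stood at 41.6, 26.9 and 32.3 FPKM in BBP libraries and at 29.6, 30.0 and 37.2 FPKM in corn oil libraries. BBP 1 was the highest and BBP 2 the lowest. Its log2 fold change was 0.07 (SE 0.15) with all libraries and -0.09 without BBP 1. The ratio of Prkaca to Prkacb FPKM was 1.47, 2.18 and 2.03 in BBP libraries, against 2.34, 2.23 and 1.84 in corn oil libraries, the groups overlapping.

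Prkar1a, the type I-alpha regulatory subunit found in most cells (chr11:109649405-109669656), was the most abundant member and the one whose promoter holds the full CRE shown above. It stood at 149, 120.4 and 152 FPKM in BBP libraries, against 156, 154 and 155 FPKM in corn oil libraries. All BBP libraries lay below all corn oil libraries, BBP 2 farthest, and the spread was 17.3 FPKM among BBP and 0.897 FPKM among corn oil libraries (SD, n = 3 each). The log2 fold change was -0.12 (SE 0.09, interval -0.33 to 0.08) and the adjusted p 0.953, and without BBP 2 the log2 fold change was -0.06.

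Prkar1b, the type I-beta subunit of neurons (chr5:139017306-139130576), stood at 169, 123 and 128 FPKM in BBP libraries and 134, 127 and 154 FPKM in corn oil libraries. The highest library was BBP 1, and the remaining BBP values overlapped corn oil. Prkar2b, the type II-beta subunit and the main regulatory subunit of striatum and cortex (chr12:31958476-32061296), stood at 15.9, 7.50 and 9.67 FPKM in BBP libraries, against 10.7, 10.3 and 12.8 FPKM in corn oil libraries. BBP 1 was the highest library and the other BBP libraries were the lowest. For Prkar2b the log2 fold change was -0.01 (SE 0.23) with all libraries and -0.36 without BBP 1 (unadjusted p of 0.0219, adjusted p of 0.700 by edgeR). Prkar2a, the type II-alpha subunit, averaged 6.38 ± 0.994 FPKM in BBP and 6.45 ± 0.381 FPKM in corn oil libraries (SD, n = 3 each). The pseudogene Prkaca-ps1 had 4 counts in BBP 2 and 0 in the other libraries.

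In the composition of the PKA subunits BBP 1 stood at the end of the range. Prkaca made up 59.4% of the catalytic FPKM in BBP 1, 68.5% in BBP 2 and 67.0% in BBP 3, against 64.8% to 70.1% in corn oil. Prkar1b made up 49.7% of the regulatory FPKM in BBP 1, 47.9% in BBP 2 and 43.0% in BBP 3, against 42.7% to 47.0% in corn oil. On both measures corn oil 3 was the corn oil library nearest to BBP 1. Corn oil 3 also had the highest sums of striatum and isocortex markers of its group. Its sums of dentate granule, CA1 and CA2 and CA3 markers were the lowest of the group. BBP 1 stood at the same ends among the BBP libraries for each of these lists. The part of any of the lists in these shares was not tested.

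**Figure D2:**
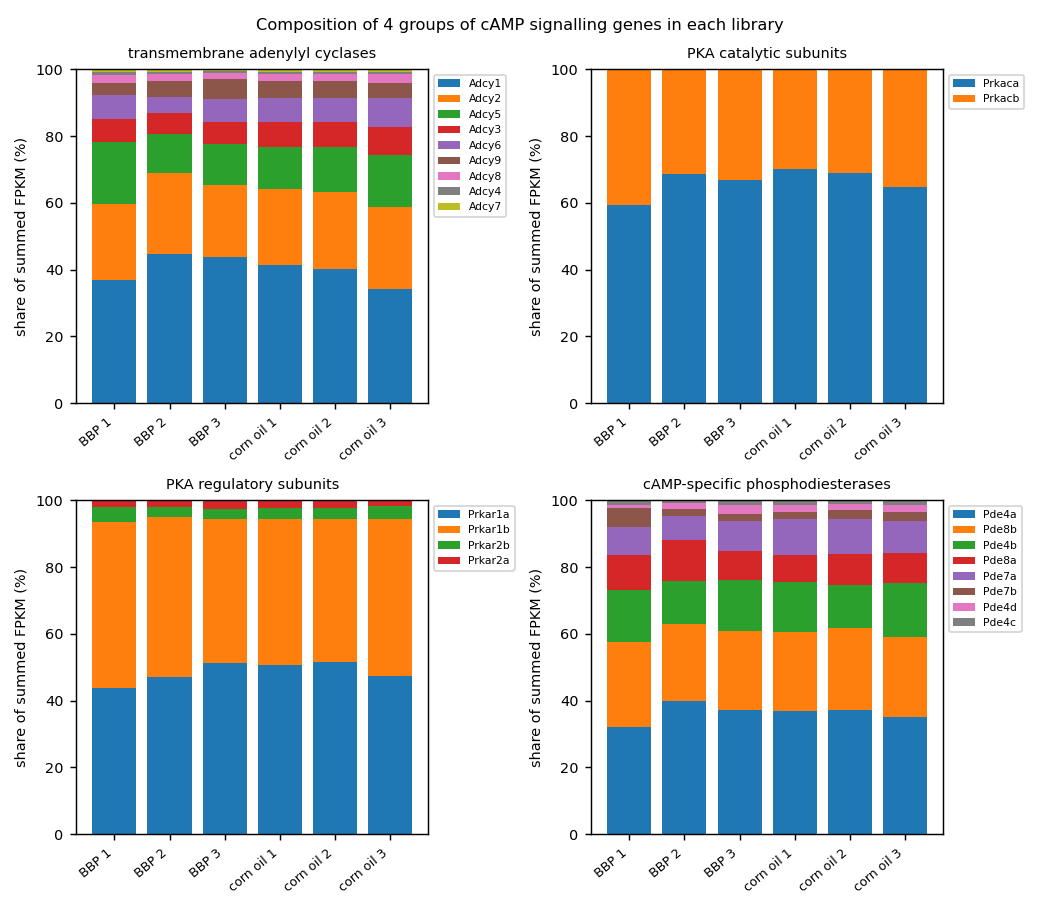
Share in percent of the summed FPKM of the transmembrane cyclases, the catalytic and regulatory PKA subunits and the cAMP-specific phosphodiesterases taken by each of their members, with 1 stacked bar for each BBP and corn oil library. BBP 1 has the largest shares of Adcy5 (18.6%), Prkar1b (49.7%) and Pde7b (5.64%) and the smallest of Prkaca (59.4%) among the 6 libraries.

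The cAMP-specific phosphodiesterases were the class whose median stood highest above corn oil. Of the 8 genes, 6 (75.0%) were on average higher in BBP, against 52.4% of all tested genes. The class median log2 fold change was 0.22, against 0.01 over all tested genes. BBP 1 was the highest library for 4 of the 8 (50.0%), against 22.1% of all tested genes. Their summed FPKM was 45.2, 44.1 and 39.1 in BBP libraries, against 36.5, 38.0 and 37.8 in corn oil libraries. The sums did not overlap, though 39.1 in BBP 3 and 38.0 in corn oil 2 lay close. This sum has no counterpart over all genes, and it draws on the same values as the median that set the class apart. Gene by gene, the groups did not overlap for 1 of the 8, Pde4a (12.5%), beside 10.4% of all tested genes. BBP 1 and BBP 2, highest in this sum, were also the highest libraries for the 12 oligodendrocyte markers, which summed to 854, 860.1 and 589 FPKM in BBP libraries, against 529, 724 and 551 FPKM in corn oil libraries, and BBP 1 was highest for striatum markers as given above. The part of either list in the class values was not tested. The median was 0.13 without BBP 1, 0.21 without BBP 2 and 0.28 without BBP 3. No member of the class passed the test, the smallest adjusted p being 0.953 (edgeR).

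Pde8a, a phosphodiesterase with high affinity for cAMP (chr7:81213596-81334533), had the smallest p-value of the members. It stood at 4.70, 5.49 and 3.47 FPKM in BBP libraries, against 2.93, 3.53 and 3.34 FPKM in corn oil libraries. BBP 2 was the highest and BBP 1 next, while BBP 3 lay below corn oil 2. Its log2 fold change was 0.51 (SE 0.19, interval 0.07 to 0.96), with an unadjusted p of 0.0288 and an adjusted p of 0.953 by edgeR's quasi-likelihood test. Without BBP 2 the log2 fold change was 0.31 and the unadjusted p 0.103, and without BBP 3 it was 0.69 with an unadjusted p of 0.00228 and an adjusted p of 0.624. All 6 libraries had the same order for Pde8a as for the median of the 12 oligodendrocyte markers, BBP 2 and BBP 1 being highest, and Pde8a was the 1 member of 52 to do so, beside 0.279% of all tested genes. None of those 12 markers was at 0 in any library, and 12 of 12 had a positive log2 fold change. The same check of order against the striatum markers matched 0 of the 52 members, beside 0.201% of all tested genes. The part of the oligodendrocyte markers in the Pde8a values was not tested. A predicted gene on the opposite strand, Gm7180, overlaps 513 bp of Pde8a at a mean level of 1.64 FPKM, so reads there are uncertain.

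Its relative Pde8b, which shares that affinity (chr13:95024454-95250336) stood at 11.5, 10.1 and 9.27 FPKM in BBP libraries and 8.62, 9.38 and 9.06 FPKM in corn oil libraries. BBP 3 lay just below corn oil 2, and the log2 fold change was 0.21 (SE 0.10, unadjusted p of 0.0703). Pde4a, which the inhibitor rolipram blocks and which was the most abundant of the class (chr9:21165714-21213248), stood at 14.5, 17.6 and 14.5 FPKM in BBP libraries and 13.4, 14.1 and 13.3 FPKM in corn oil libraries. Every BBP library was above every corn oil library, BBP 2 by the most. The log2 fold change was 0.22 (SE 0.12, interval -0.05 to 0.49) and did not pass the test (unadjusted p of 0.101), and without BBP 2 it was 0.08.

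Pde4b, another rolipram-sensitive phosphodiesterase (chr4:102087543-102605861), stood at 7.15, 5.66 and 5.92 FPKM in BBP libraries, against 5.52, 4.86 and 6.08 FPKM in corn oil libraries. The groups overlapped and BBP 1 was the highest, with a log2 fold change of 0.21 (SE 0.11), which was 0.12 without BBP 1 and 0.13 without corn oil 2. Its relative Pde4d, named here after its values were seen, ran the other way in BBP 1, at 0.360, 0.726 and 0.976 FPKM in BBP libraries and 0.745, 0.704 and 0.798 FPKM in corn oil libraries. BBP 1 was the lowest and BBP 3 the highest of the 6. The ratio of Pde4b to Pde4d was accordingly 19.9 in BBP 1 and 7.79 and 6.07 in BBP 2 and 3, against 6.90 to 7.61 in corn oil. Pde4d spans a long locus that also holds the pseudogene Rps3a3.

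Pde7b, a rolipram-insensitive phosphodiesterase abundant in striatum (chr10:20398004-20725078), had the largest single-library departure among members of at least 1 FPKM. It stood at 2.55, 0.950 and 0.887 FPKM in BBP 1, 2 and 3, against 0.845, 1.00 and 0.997 FPKM in corn oil libraries. BBP 1 was 2.54 times the next highest library, and the other 5 libraries overlapped. Its log2 fold change was 0.64 (SE 0.37, interval -0.21 to 1.48) with BBP 1 and -0.00 without it. Beside this, the striatum markers in BBP 1 had a median log2 deviation of 1.62 from the corn oil mean, and that of Pde7b was 1.42, whose relation was not tested. Pde7a and Pde4c made up the rest of the class. Pde7a averaged 3.45 FPKM in BBP and 3.87 FPKM in corn oil libraries, and Pde4c ranged from 0.380 to 0.685 FPKM in BBP and from 0.432 to 0.501 FPKM in corn oil libraries.

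Among the phosphodiesterases that hydrolyse both cAMP and cGMP, Pde2a, which cGMP stimulates (chr7:101421691-101512827), was the most abundant. It stood at 64.5, 63.4 and 67.2 FPKM in BBP libraries, against 67.3, 61.7 and 65.6 FPKM in corn oil libraries. The groups overlapped fully, with a log2 fold change of 0.03 and a narrow interval of -0.16 to 0.21. The calcium and calmodulin-activated Pde1a stood at 25.4, 24.4 and 32.8 FPKM in BBP libraries and 29.4, 28.5 and 27.5 FPKM in corn oil libraries, BBP 3 being highest.

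Its relative Pde1b, rich in striatum (chr15:103503034-103530052), stood at 32.0, 19.4 and 22.6 FPKM in BBP libraries and 21.3, 21.0 and 24.4 FPKM in corn oil libraries. BBP 1 was the highest and BBP 2 the lowest library. For Pde1b the log2 fold change was 0.17 (SE 0.16) with all libraries and -0.05 without BBP 1. Pde1b made up 25.8% of the dual-specificity FPKM in BBP 1, 17.8% in BBP 2 and 18.1% in BBP 3, against 17.6% to 20.4% in corn oil. The less abundant Pde1c stood at 0.365, 0.251 and 0.283 FPKM in BBP libraries and 0.209, 0.287 and 0.233 FPKM in corn oil libraries, with a log2 fold change of 0.33 (SE 0.19). Pde3a, Pde3b and Pde11a were at 1.40 FPKM or less in every library, and their groups overlapped. The class summed to 120 ± 8.83 FPKM in BBP and 118 ± 3.81 FPKM in corn oil libraries (SD, n = 3 each).

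Of the phosphodiesterases specific for cGMP, Pde9a was the most abundant, at 4.70, 4.34 and 4.42 FPKM in BBP libraries and 4.24, 4.30 and 5.37 FPKM in corn oil libraries. Corn oil 3 was the highest and the rest lay close together. Pde5a, the target of sildenafil (chr3:122728947-122859374), stood at 0.922, 0.812 and 0.953 FPKM in BBP libraries, against 0.701, 0.846 and 0.584 FPKM in corn oil libraries. In log2 CPM every BBP library was above every corn oil library, whereas BBP 2 was below corn oil 2 in FPKM. Pde5a had a log2 fold change of 0.35 (SE 0.16, interval -0.02 to 0.73), with an unadjusted p of 0.0632.

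The Pde6 genes of rod and cone photoreceptors were near the limit of detection. Pde6g had 14, 51 and 27 counts in BBP libraries and 30, 28 and 24 counts in corn oil libraries, while Pde6c and Pde6h had at most 30 counts in any library, and Pde6h shares 18037 bp with Arhgdib on the opposite strand. Pde6a and Pde6b were too low to be tested, at 0 to 16 counts. The 3 genes classed here as carrying a phosphodiesterase name without breaking down cyclic nucleotides showed little spread. All Pde6 genes but Pde6d, including Pde6g and Pde6h, were counted with the cGMP-specific class by name, whether or not each breaks down cGMP itself. Pde6d, a prenyl-binding carrier protein, stood at 13.3, 12.01 and 12.3 FPKM in BBP libraries and 11.9, 12.7 and 13.5 FPKM in corn oil libraries. Pde4dip, or myomegalin, stood at 8.34, 8.49 and 9.13 FPKM in BBP libraries and 8.96, 8.74 and 8.20 FPKM in corn oil libraries. Pde12, a mitochondrial deadenylase, stood at 1.87, 1.75 and 2.43 FPKM in BBP libraries and 1.86, 1.99 and 1.68 FPKM in corn oil libraries. In all 3 genes the groups overlapped.

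The AKAPs were even between the groups as a class. Of 14 genes, 6 had a positive log2 fold change, the median was -0.00, and their summed FPKM was 106 ± 4.97 in BBP and 108 ± 2.099 in corn oil libraries (SD, n = 3 each). Akap8l, a nuclear protein related to the anchoring protein Akap8 and its neighbour at 186 bp on chromosome 17 (chr17:32321424-32350595), stood at 33.0, 32.6 and 31.5 FPKM in BBP libraries and 31.8, 31.8 and 35.3 FPKM in corn oil libraries. Akap8 itself stood at 13.2, 11.1 and 13.2 FPKM in BBP libraries and 12.9, 13.1 and 13.5 FPKM in corn oil libraries. Both overlapped between groups, with BBP 2 the lowest library for Akap8. Akap11, which binds PKA and the kinase GSK3-beta, stood at 14.5, 14.9 and 19.0 FPKM in BBP libraries and 17.8, 17.1 and 16.3 FPKM in corn oil libraries. BBP 3 was the highest and the other BBP libraries the lowest.

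Akap12, or gravin, a scaffold for PKA and protein kinase C (chr10:4266380-4359470), was the AKAP with the smallest p-value. It stood at 2.44, 2.05 and 2.32 FPKM in BBP libraries, against 1.97, 1.86 and 1.87 FPKM in corn oil libraries. All BBP libraries lay above all corn oil libraries, and each group was tight. Its log2 fold change was 0.28 (SE 0.10, interval 0.04 to 0.52), with an unadjusted p of 0.0295 and an adjusted p of 0.953 by edgeR's quasi-likelihood test. Leaving out BBP 1 gave 0.24 with an unadjusted p of 0.0728, and leaving out BBP 2 gave 0.31 with an unadjusted p of 0.0210. Akap12 is also expressed by vascular and mural cells, and the 11 markers of endothelial and mural cells, none at 0, summed to 89.0, 61.8 and 75.2 FPKM in BBP libraries and to 67.3, 67.4 and 74.3 FPKM in corn oil libraries, with 11 of 11 log2 fold changes positive. The 10 astrocyte markers, none at 0, summed to 331, 333 and 359 FPKM in BBP libraries. In corn oil libraries they summed to 306, 325 and 303 FPKM, and 9 of the 10 had a positive log2 fold change. The part of either list in the Akap12 values was not tested.

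Akap7, whose short forms anchor PKA at membranes (chr10:25169090-25307870), stood at 6.90, 6.39 and 6.45 FPKM in BBP libraries and 6.32, 6.27 and 6.36 FPKM in corn oil libraries. The groups did not overlap, yet the log2 fold change was 0.08 (SE 0.09). Akap3, known from the sperm tail (chromosome 6), had 18, 5 and 27 counts in BBP libraries, against 34, 30 and 31 counts in corn oil libraries. All BBP values were below all corn oil values, with a log2 fold change of -0.92 (SE 0.57, interval -2.24 to 0.39) that rests on few counts and was -0.52 without BBP 2. Akap5, the postsynaptic anchor that holds PKA near AMPA receptors, is named for that role after its values were seen and averaged 8.86 FPKM in BBP and 8.47 FPKM in corn oil libraries. Akap1, Akap6, Akap9, Akap10, Akap13 and Akap17b lay between 1.9 and 9.54 FPKM over all libraries, Akap14 had 9 to 32 counts, and in all 7 the groups overlapped.

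Across all 52 tested members, none (0) reached the adjusted threshold of 0.05 by edgeR's quasi-likelihood test, and 0.00% of all 20428 tested genes did. At an unadjusted p under 0.05, 2 members were higher in BBP (Pde8a and Akap12), beside 1.98% of all genes, and 0 were lower, beside 1.37%. Both directions together came to 3.85% of the members and 3.35% of all genes. DESeq2 likewise gave 2 members at an unadjusted p under 0.05 and 0 after adjustment, beside 3.87% and 0.0196% of all genes. By limma on FPKM, 1 member (Pde8a) was at that unadjusted threshold with a pseudocount of 1 and 1 with a pseudocount of 0.1, of 39 tested, beside 2.98% and 2.95% of all genes. A positive log2 fold change was found in 29 members (55.8%), against 52.4% of all genes, and the median was 0.02 against 0.01. In log2 CPM the groups did not overlap for 8 members, 5 with BBP above (Adcy2, Pde4a, Pde5a, Akap7 and Akap12), beside 5.10% of all genes, and 3 with BBP below (Prkaca, Prkar1a and Akap3), beside 5.32%. That share of 15.4% compares with 10.4% of all genes, and 6 of the 8 were also without overlap in FPKM. These shares lay near those of all genes, and none is a result about the members as a group.

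The precision behind these values was higher than for most genes. The median standard error was 0.13 for the members, against 0.18 for all tested genes. The 95% interval lay within a 2-fold difference in either direction for 45 members (86.5%), against 69.9% of all genes, and within 1.5-fold for 37 (71.2%), against 50.4%. The members' median level was also higher than that of all genes, as given above. Of the 39 members with a mean of at least 1 FPKM, 29 (74.4%) varied by less than 1.5-fold from the lowest to the highest library, against 66.8% of all such genes.

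**Figure D3:**
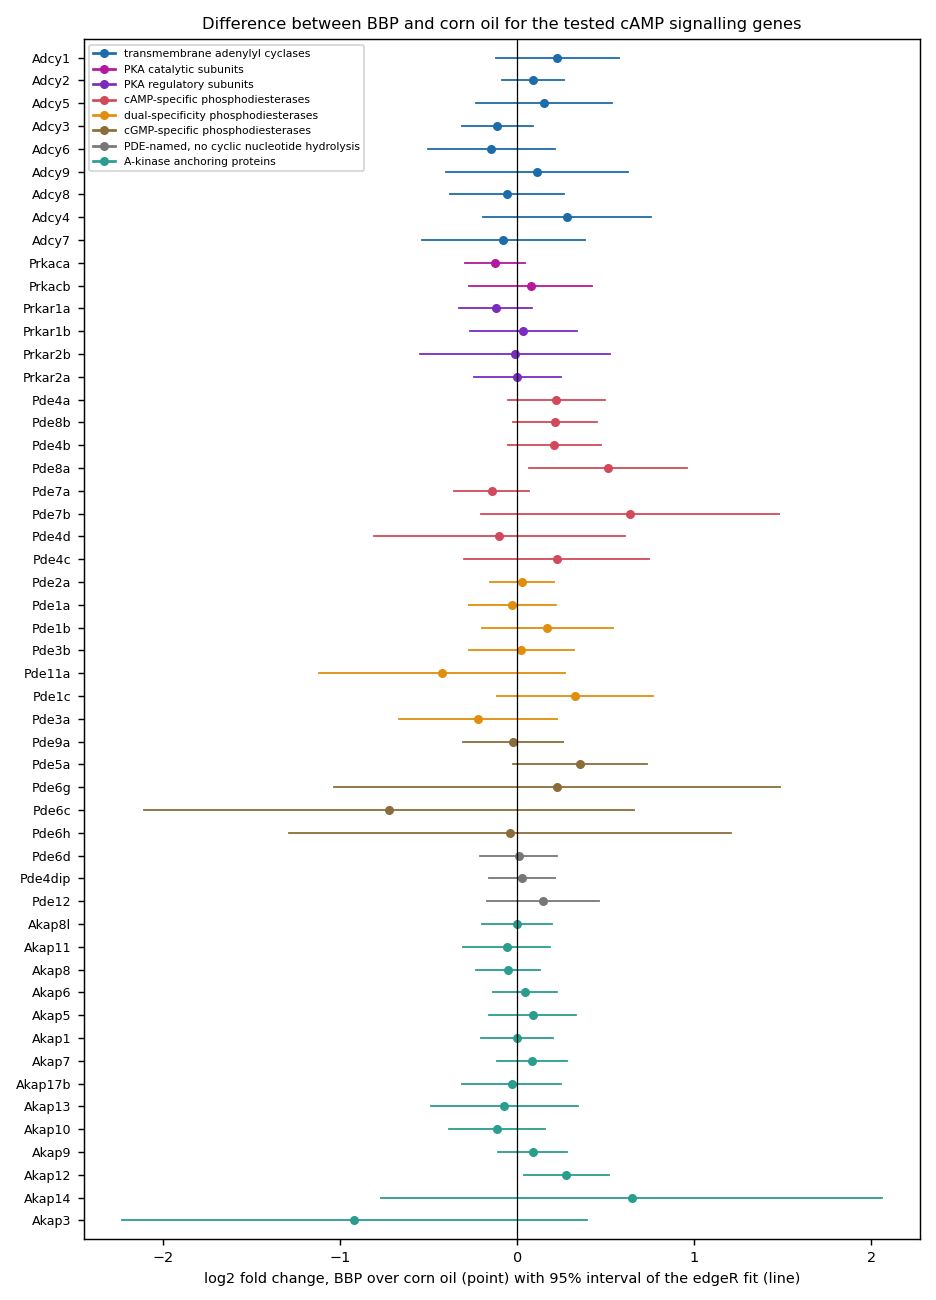
Log2 fold change of BBP over corn oil for the tested members, grouped by role, with 95% intervals from edgeR's quasi-likelihood fit (n = 3 libraries each). The intervals of Pde8a and Akap12 lie above 0, and those of all other members cross it.

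The members did not vary evenly over the libraries. BBP 1 was the highest library for 17 of the 52 tested members (32.7%), against 22.1% of all genes, and BBP 2 was the lowest for 16 (30.8%), against 26.7%. The median standard deviation of log2 CPM within a group was 0.19 for BBP and 0.11 for corn oil libraries, and over all genes it was 0.24 for BBP and 0.14 for corn oil libraries. In BBP 1, 15 tested members stood more than 0.25 above the corn oil mean in log2 CPM and 7 more than 0.25 below it, a limit set after the values were seen. The share of all tested genes beyond this limit was not counted, so neither count is a result about the members. Of the 15, 14 had a positive log2 fold change with all libraries and 9 without BBP 1. The BBP 1 value that picked these members is also part of their log2 fold change. A higher count with that library than without it therefore follows from the choice. The 6 that were negative without BBP 1 were Pde7b, Adcy5, Pde1b, Prkar2b, Prkacb and Prkar1b, at -0.00, -0.08, -0.05, -0.36, -0.09 and -0.11, and Prkar2b was already negative with it. The 9 that stayed above corn oil included Pde8a at 0.51, Pde5a at 0.35, Akap12 at 0.24, Pde1c at 0.18, Pde8b at 0.14, Pde4b at 0.12 and Adcy4 at 0.12 without BBP 1. Akap14 and Pde4c, both low in level, were the others. The 7 members low in BBP 1 were Pde4d at a deviation of -1.05, Pde11a at -0.97, Pde6g at -0.85, Pde6h at -0.76, Akap3 at -0.73, Akap13 at -0.55 and Adcy9 at -0.35. Of these, 2 had a positive log2 fold change with all libraries and 5 without BBP 1, a rise that the same choice favours.

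**Figure D4:**
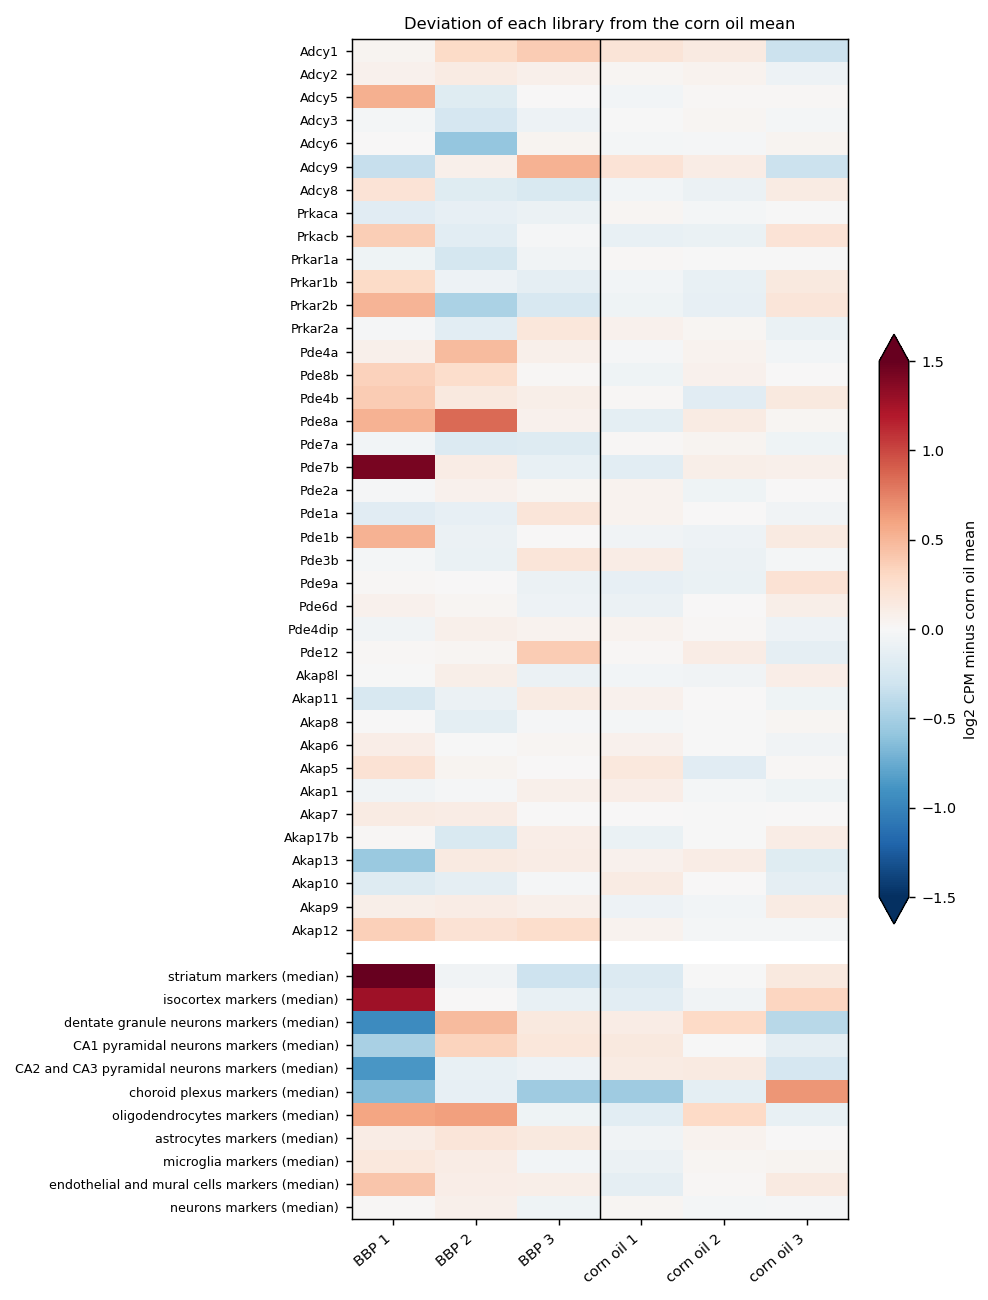
Log2 CPM minus the corn oil mean in each BBP and corn oil library, for the 39 members with a mean of at least 1 FPKM in order of role and, under them, for the medians of the marker lists, with red above and blue below the corn oil mean (colours end at 1.5). In BBP 1 Pde7b is at 1.42 beside 1.62 for striatum markers, and in BBP 2 Pde8a is at 0.85 beside 0.62 for oligodendrocyte markers.

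**Figure D5:**
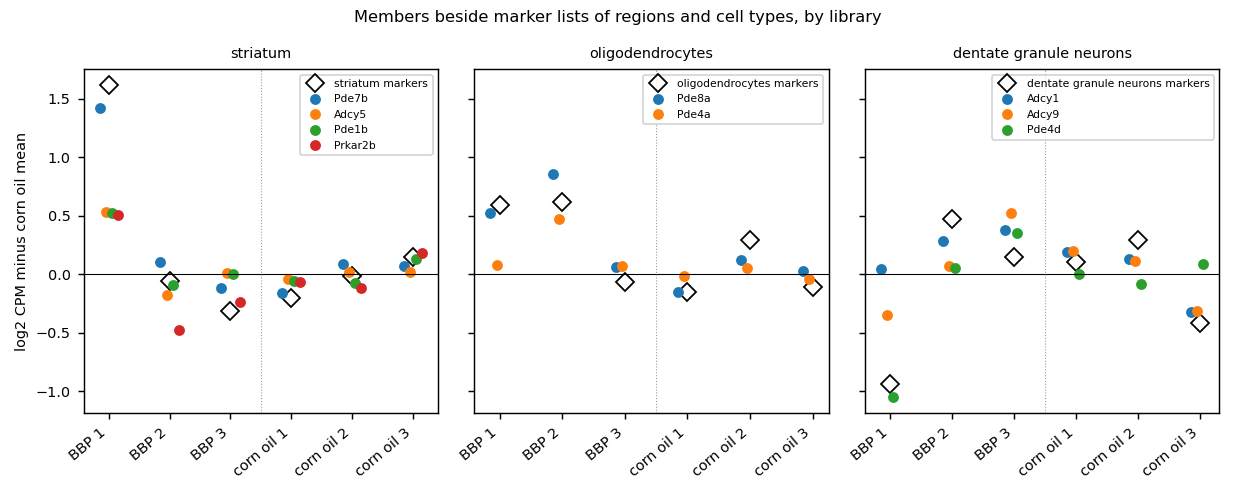
Log2 CPM minus the corn oil mean in each BBP and corn oil library for medians of 3 marker lists (open diamonds) and for members shown beside them (coloured points), which were chosen with the values known. Striatum markers are at 1.62 in BBP 1 with Pde7b at 1.42 and Adcy5 at 0.53. Dentate granule markers are at -0.94 in BBP 1 with Pde4d at -1.05. The 2 part in other libraries, with dentate granule markers at -0.42 and Pde4d at 0.09 in corn oil 3, and at 0.47 and 0.05 in BBP 2.

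Leaving out 1 library at a time moved the counts at an unadjusted p under 0.05 by edgeR. The member counts are small and give no result about the members as a group. Without the library BBP 1, at that threshold 2 of 54 tested members were higher (Pde8a and Pde4a) and 1 was lower (Prkar2b). The share of all genes was 7.00%, and 0.0142% of all genes passed after adjustment. Pde4a then had a log2 fold change of 0.29 with an unadjusted p of 0.0445. Without BBP 2 the count was 1 (Akap12), beside 3.43% of all genes. Without BBP 3, 4 members were higher, namely Pde8a, Pde8b, Pde7b and Akap12, beside 7.26% of all genes. Without corn oil 1 or corn oil 3, 0 members reached that threshold, beside 1.86% and 2.20% of all genes. Without corn oil 2 the count was 2 (Pde8a and Pde5a), beside 2.25%, and 0.00473% of all genes passed after adjustment. With the replicate number as a block it was 1 (Pde8a), beside 2.42%. After adjustment no member passed in any of the 14 alternative analyses.

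Genes that act before and after the members in the pathway were taken from a list of 76 receptors, G-protein subunits, effectors, inhibitors, CREB factors and responsive genes, all of which were tested. In this list 0 passed the adjusted test, beside 0.00% of all genes. At an unadjusted p under 0.05 by edgeR, 2 were higher and 2 were lower in BBP (5.26%), beside 3.35% of all genes. On average 45 lay above corn oil (59.2%), beside 52.4% of all genes, and the median log2 fold change was 0.06 against 0.01. The groups did not overlap for 7 genes (9.21%), beside 10.4% of all genes. These shares lay near those of all genes. Of the list, 5 genes are also striatum markers.

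Among the receptors that raise cAMP through Gs, Htr7, a serotonin receptor, stood at 2.73, 2.03 and 2.497 FPKM in BBP libraries, against 3.17, 2.76 and 3.35 FPKM in corn oil libraries. All BBP values were below all corn oil values, with a log2 fold change of -0.34 (SE 0.14, unadjusted p of 0.0437). The most abundant of these receptors was Adcyap1r1, the receptor of the peptide PACAP, at 22.4 ± 4.27 FPKM in BBP and 23.6 ± 0.254 FPKM in corn oil libraries (SD, n = 3 each). Among those that lower cAMP through Gi, Sstr2, a somatostatin receptor, stood at 8.08, 4.73 and 4.82 FPKM in BBP libraries, against 4.39, 3.51 and 4.53 FPKM in corn oil libraries. Every BBP library was above corn oil, BBP 1 far the most, and the log2 fold change of 0.52 (SE 0.22, unadjusted p of 0.0438) was 0.24 without BBP 1 (unadjusted p of 0.162). The adenosine receptor Adora1 was the most abundant of them, at 39.4 ± 4.08 FPKM in BBP and 35.2 ± 4.57 FPKM in corn oil libraries (SD, n = 3 each).

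Gnas, the stimulatory G-protein subunit, averaged 102 ± 0.608 FPKM in BBP and 109 ± 5.91 FPKM in corn oil libraries (SD, n = 3 each). Rapgef4, or Epac2, which cAMP activates independently of PKA, stood at 77.1, 66.3 and 64.6 FPKM in BBP libraries, against 59.1, 57.1 and 57.1 FPKM in corn oil libraries. The groups did not overlap and BBP 1 was highest. Its log2 fold change of 0.29 (SE 0.09) had an unadjusted p of 0.0153 and an adjusted p of 0.953 by edgeR, and without BBP 1 it was 0.22 with an unadjusted p of 0.0365.

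Further along the pathway, Sik1, a kinase that CREB induces and that restrains CREB coactivators, stood at 1.199, 1.41 and 2.05 FPKM in BBP libraries, against 2.15, 2.00 and 2.496 FPKM in corn oil libraries. The groups overlapped at BBP 3 and corn oil 2, and the log2 fold change of -0.50 (SE 0.20) had an unadjusted p of 0.0375. Egr1, an immediate early gene, stood at 70.3, 30.4 and 26.7 FPKM in BBP libraries and 27.0, 27.7 and 30.3 FPKM in corn oil libraries, BBP 1 alone being high. Crtc1, a CREB coactivator, averaged 19.1 ± 2.80 FPKM in BBP and 19.0 ± 0.733 FPKM in corn oil libraries (SD, n = 3 each). Ensa, an inhibitor of protein phosphatase that PKA phosphorylates, averaged 51.3 ± 7.52 FPKM in BBP and 57.7 ± 1.32 FPKM in corn oil libraries (SD, n = 3 each).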

How the data were processed

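Libraries were polyA-selected, marked the strand and carried molecular identifiers in their adapters, per the labels' protocols. HISAT2 2.2.1, StringTie 2.1.6, cutadapt 1.9, edgeR, DESeq2, UMI-tools and the build mm10 stand in the submitters' processing notes, with no role for any of them. Per the file headers, the authors deposited an estimated count and an FPKM value for each gene and library, with coordinates. The deposited estimated counts were whole numbers, so none needed rounding. How they came about, and with what strand setting, is not given in the sources used here; genes that overlap are thus uncertain. FPKM values were used as the authors deposited them.

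Groups followed the labels, and no library was left out. For BBP over corn oil, the quasi-likelihood test of edgeR 4.0.16 (R 4.3.3) was run on all genes, with TMM scaling, filterByExpr, no covariate and Benjamini-Hochberg adjustment over the 20428 tested genes, after it had been tested on simulated data. The biological coefficient of variation was 0.225. Alternatives were DESeq2 1.42.0, other size factors, no filter, limma 3.58.1 on log2(FPKM + 1) and log2(FPKM + 0.1) at a mean of at least 1 FPKM or with no filter, counts divided by 4, a replicate block and leaving out each library. Log2 CPM used a prior count of 2. No table of protein sequences was used here.

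Genes given in every library were the 3 most abundant of each role, the 10 with the smallest p, those without overlap between groups, and those of at least 1 FPKM with 1 library 1.5-fold from the next. Other names were added after their values were seen. The members, roles and lists were chosen with earlier results of these data known.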

Additional observations from a re-analysis of the deposited data

How the results depend on the processing

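Over 14 alternative analyses no member passed an adjusted p of 0.05, and the median log2 fold changes of the cAMP-specific phosphodiesterases and of the genes with a phosphodiesterase name only stayed positive. The number of members at an unadjusted p under 0.05, 2 with all libraries, was 1 with limma on log2(FPKM + 1), 1 with log2(FPKM + 0.1), 0 with limma without a filter and 0 to 4 when each library was left out. The list of 76 pathway genes gave 4 at that threshold with all libraries and 0 to 10 when each library was left out. The shares of all genes were 3.35% and 1.86% to 7.26%. The median log2 fold change of the transmembrane cyclases, 0.09, was 0.056 with limma on log2(FPKM + 1), filtered or not, and -0.081 to 0.11 with 1 library left out. That of the cGMP-specific phosphodiesterases, -0.03, was 0.17 with counts divided by 4, which left 2 of its genes tested, and -0.086 to 0.26 with 1 library left out. In the same fits the catalytic PKA subunits ran from -0.098 to 0.032 (-0.03 with all libraries), the regulatory ones from -0.13 to 0.081 (-0.01 with all libraries), the dual-specificity phosphodiesterases ran from -0.062 to 0.055 and the AKAPs from -0.016 to 0.032. Of 410 comparisons of 30 named members, 383 kept their sign and 27 did not, 23 of these with a library left out. Leaving out 1 library gave log2 fold changes of -0.081 to 0.29 for Adcy5, -0.25 to 0.028 for Adcy6, -0.092 to 0.19 for Prkacb, -0.11 to 0.12 for Prkar1b, -0.36 to 0.17 for Prkar2b and -0.0048 to 0.91 for Pde7b. The ranges were -0.0068 to 0.055 for Pde2a, -0.15 to 0.037 for Pde1a, -0.048 to 0.28 for Pde1b, -0.085 to 0.091 for Pde9a, -0.44 to 0.58 for Pde6g and -0.037 to 0.051 for Pde6d. They were -0.0102 to 0.0655 for Pde4dip, -0.046 to 0.049 for Akap8l and -0.16 to 0.0205 for Akap11. A further 11 named members kept their sign with every library left out but moved by over 1.5 times, among them Adcy1 (0.085 to 0.32), Prkar1a (-0.16 to -0.058), Pde4a (0.076 to 0.29), Pde5a (0.23 to 0.50), Pde1c (0.18 to 0.46) and Akap3 (-1.39 to -0.52), and the other 4 moved less. Pde6d, at 0.01 with all libraries, was -0.0019 without a filter on low counts, -0.015 with limma on log2(FPKM + 1), filtered or not, and -0.016 with log2(FPKM + 0.1). The cause of these sign changes was not tested. With 3 libraries a group the precision of low members such as Pde6g and Akap3 is limited by their counts.

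No label says that the replicate numbers pair the libraries. The deviations of same-numbered BBP and corn oil libraries from their group means correlated at -0.077, 0.076 and -0.10 across genes. Those of differently numbered libraries correlated at -0.073 to 0.15. With 3 libraries a group, these values cannot tell whether the numbers mark a shared batch. With the replicate block, 1 member (Pde8a, log2 fold change 0.48, unadjusted p of 0.0275, adjusted p of 1.00 by edgeR) was at an unadjusted p under 0.05, beside 2.42% of all genes, and 0 passed after adjustment.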
